A study of Mus musculus with 4 samples.

Results

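Alkal1 and Alkal2 encode the small secreted ligands (augmentors) of the receptor tyrosine kinases ALK and LTK, and these 4 genes were followed through lungs of bleomycin-treated wild-type (WT) and Tubb3-/- mice. They were chosen as a ligand and receptor family, with earlier results of these data known, out of 32286 genes in the deposited tables, and their level by lineage, by fibroblast or pericyte state and by genotype was part of that choice. Their levels and genotype differences are therefore given as a description. The Tubb3-/- animals were homozygous Tubb3-Cre knockin mice, in which Cre sits at the start of the Tubb3 coding sequence, so that β-III tubulin is absent from every cell and not from pericytes alone. Lungs of 2 WT littermates and 2 Tubb3-/- mice were taken on day 14 after bleomycin, 0.8 U/kg, had been given into the trachea, and no uninjured lung was included. The study used adult mice of both sexes, and the strain is not given in the sources used here. Each lung gave a whole-cell sample, sorted for live cells after depletion of red cells, and a mural cell-enriched sample, in which immune, endothelial and epithelial cells had been depleted and cells with MCAM and without PDGFRα were mixed with MCAM-negative cells. Cells carried a tag for their mouse and were pooled across the 4 mice before droplet capture.

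ALK and LTK are closely related receptors that are best known from the nervous system and, as fusion or mutant kinases, from cancer. A ligand binds the extracellular part of the receptor, receptors dimerise, and the phosphorylated kinase domain recruits adaptors such as the SHC, FRS and IRS proteins, which feed the MAP kinase and PI3 kinase pathways. The ligands share a conserved C-terminal region, the augmentor domain, that holds their receptor-binding part. Pleiotrophin (Ptn) and midkine (Mdk) have also been described as ligands of this system, and the phosphatase receptor Ptprz1 binds both.

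The 4 genes were separable from one another in these libraries. In the GRCm38 annotation, Alkal1 (ENSMUSG00000087247) spans chr1:6359218-6394731 on the plus strand, with 5 exons and 381 coding bases, and Alkal2 (ENSMUSG00000054204) spans chr12:30884322-30893854 on the plus strand, with 5 exons and 453 coding bases. Of the receptors, Alk (ENSMUSG00000055471) covers chr17:71868972-72604627 on the minus strand with 29 exons, and Ltk (ENSMUSG00000027297) covers chr2:119751320-119760431 on the minus strand with 20 exons. Alkal2 overlaps Acp1, which lies on the other strand and has counts of its own, whereas Alkal1 overlaps 2 processed pseudogenes, Gm2147 and Gm7417, neither of which is a feature of the tables. Of these pseudogenes, 1 lies on the strand of Alkal1, and its reads could not be told apart from reads of Alkal1 where they overlap. Alk overlaps 3 annotated genes on its own strand and 1 on the other, and none of these is a feature of the tables. The ligand pair shared 68.1% of 188 aligned coding bases, and the longest run of identical bases between their transcripts was 14. For the receptor pair these values were 65.0% of 2152 bases and a run of 17.

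The longest ungapped stretch of the aligned ligand pair, which lies in the augmentor domain, is shown to make clear how far the transcripts differ there. Capitals mark the bases that are identical in both genes, 79 of the 111 shown (71.2%). The stretches are coding bases 262 to 372 of Alkal1 and 334 to 444 of Alkal2, 5′ to 3′ in the sense of the gene.
Alkal1: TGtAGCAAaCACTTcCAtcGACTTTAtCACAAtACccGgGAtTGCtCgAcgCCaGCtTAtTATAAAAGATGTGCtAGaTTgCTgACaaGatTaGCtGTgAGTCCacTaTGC
Alkal2: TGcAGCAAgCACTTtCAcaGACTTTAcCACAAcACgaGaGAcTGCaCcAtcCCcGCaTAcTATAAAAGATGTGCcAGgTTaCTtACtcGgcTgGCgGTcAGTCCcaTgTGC

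The 8 libraries held 41462258 to 95036340 unique molecular identifiers (UMIs, one per captured transcript) assigned to genes, with a median of 9186 to 16299 per cell, and 29891 of 32121 cells passed the limits on genes, mitochondrial UMIs and doublets. No cell barcode was shared within a pool, and 59 were shared between the pools. Tubb3 itself, which was low, gave 178 and 89 UMIs in mural cells of the WT mice and 17 and 23 in those of the Tubb3-/- mice. Lineages were assigned by a UMI of Ptprc (immune), Cdh5 (endothelial), Epcam (epithelial), Higd1b or Myh11 (mural) or Pdgfra (fibroblast), and 11452 cells (38.3%) carried markers of several lineages and were set aside. Libraries of the Tubb3-/- mice were the deeper ones in both pools, so the UMIs of a gene were summed over the cells of a mouse and scaled to all gene UMIs of those cells, as counts per 1e+06 (CPM).

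Alkal1 was the member with the most UMIs, 2041 in 877 of the 29891 cells, against 318 UMIs for Alkal2, 200 for Alk and 116 for Ltk. UMI counts also depend on transcript length and capture, so the genes were not ranked against each other. Its highest level among the lineages was in epithelial cells. There Alkal1 measured 24.4 and 17.6 CPM in WT against 40.0 and 25.9 CPM in Tubb3-/- mice (27.0 ± 9.40, SD, n = 4 mice, 209 UMIs in 415 cells). Mural cells gave 5.23 and 6.93 CPM in WT against 17.4 and 12.1 CPM in Tubb3-/- mice. The lowest epithelial value was only just above the highest mural value, so the order of those lineages rested on a small gap. Fibroblasts were far lower, at 1.13, 0.55, 2.53 and 2.13 CPM in the same order of mice. Immune cells gave 0.33, 0.39, 0.42 and 0.17 CPM, and endothelial cells held 5 Alkal1 UMIs in all. Mural cells, 18.4% of the cells, thus held 36.2% of the Alkal1 UMIs and epithelial cells, 1.39% of the cells, held 10.2%, while 43.0% lay in cells with markers of several lineages.

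**Figure D1:**
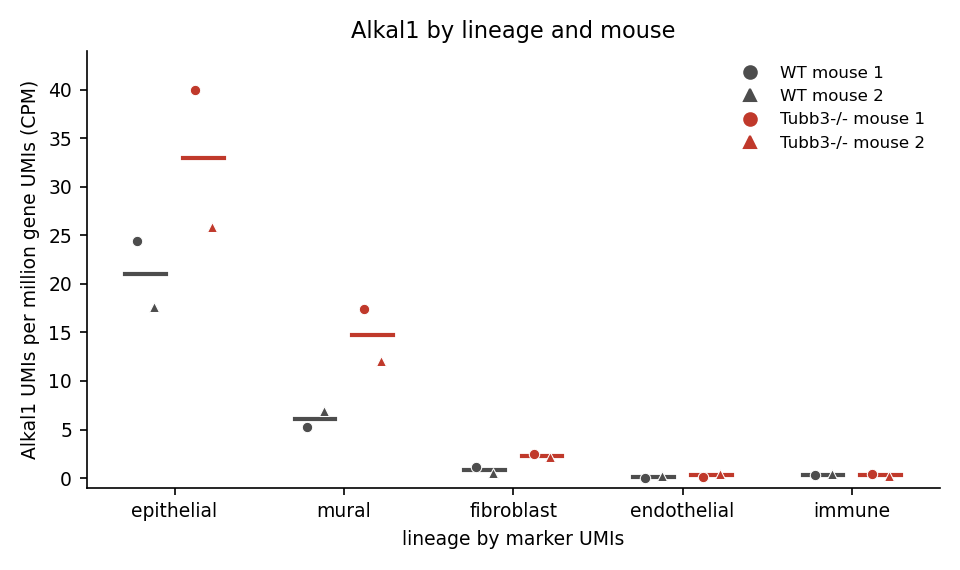
Alkal1 in CPM (y axis, linear) in each lineage of the 4 mice, WT in grey and Tubb3-/- in red, with circles for mouse 1, triangles for mouse 2 and a line at the mean of each genotype. In epithelial, mural and fibroblast cells the lower Tubb3-/- mouse lies above the higher WT mouse, and endothelial and immune cells are near 0.

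To place Alkal1 more finely, all 29891 cells were clustered without the 4 members among the variable genes, and clusters were named from marker lists. Of the 28 named types, 16 held more than 3 Alkal1 UMIs and only 6 of these averaged over 1 CPM. Alveolar type 2-like cells, the surfactant-producing cells of the alveolus, stood first with 44.5 and 34.4 CPM in WT against 39.9 and 59.3 CPM in Tubb3-/- mice. Their 357 UMIs came from 146 of 329 cells, a share of 44.4%. Peribronchial fibroblast-like cells, which lie around airways and express Hhip, Aspn and Fgf18, came next with 15.2 and 29.1 CPM in WT against 46.4 and 48.3 CPM in Tubb3-/- mice. In the Tubb3-/- mice these fibroblasts were thus within the range of alveolar type 2-like cells, whereas in the WT mice they were below it.

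Pericyte-like cells, the capillary mural cells marked by Higd1b, Cox4i2 and Ndufa4l2, followed them. They gave 15.4 and 5.30 CPM in WT against 37.4 and 22.0 CPM in Tubb3-/- mice. Alveolar type 1-like cells, the thin gas-exchange cells, gave 16.1 and 4.92 CPM in WT against 43.8 and 5.93 CPM in Tubb3-/- mice, so that a single Tubb3-/- mouse set their mean. Club-like cells (84 cells, 20 UMIs) averaged 8.33 ± 7.58 CPM and fibrotic fibroblast-like cells, marked by Cthrc1, Postn and Tnc, 5.50 ± 1.67 CPM (SD, n = 4 mice). Each of the first 5 types overlapped the next one in the order, so only types farther apart in the ranking were separated by more than the spread between mice. Smooth muscle-like cells, the nearest relatives of pericytes and the largest mural group, were at 0.75, 0.86, 1.05 and 1.04 CPM, and even the lowest pericyte-like mouse lay above the highest of them. No Alkal1 UMI was found in 107 ciliated-like cells, which allows a level of up to 1.54 CPM there (3 UMIs over the group, counting error only).

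**Figure D2:**
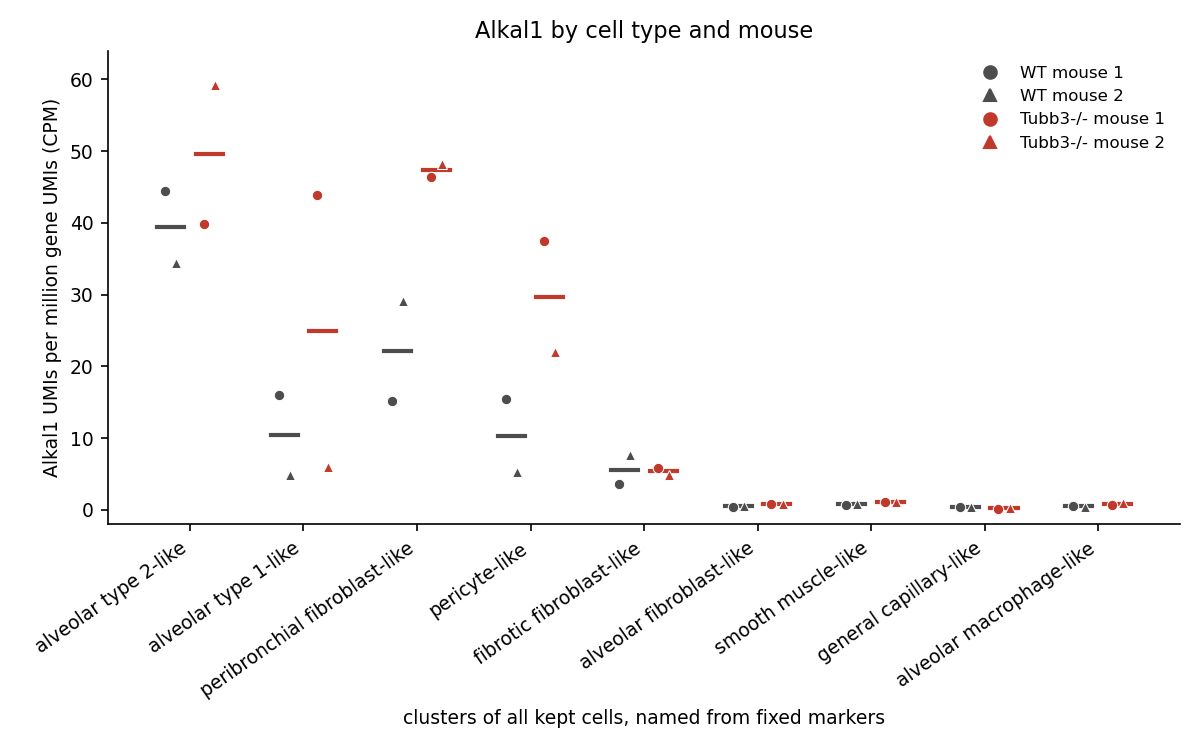
Alkal1 in CPM (y axis, linear) in selected cell types clustered from all kept cells (x axis), with a point per mouse and a line at the mean of each genotype. Alveolar type 2-like and peribronchial fibroblast-like cells have the highest means, 44.5 and 34.7 CPM, and smooth muscle-like cells stay at or below 1.05 CPM.

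Alkal1 was patchy within the types that carried it. A UMI was found in 21.8% of the 1084 peribronchial fibroblast-like cells, 9.44% of the 1420 pericyte-like cells, 8.22% of the alveolar type 1-like cells and 6.14% of the 2021 fibrotic fibroblast-like cells. Single peribronchial fibroblast-like cells reached 20 UMIs and single pericyte-like cells 18, whereas 53.0% of the positive pericyte-like cells held 1 UMI. In immune cells the share was 0.36%, with a median depth of 6927 gene UMIs against 10912 in mural cells. Immune cells came mostly from the whole-cell libraries and mural cells mostly from the mural cell-enriched ones. The immune share is therefore no measure of free RNA in the mural cell-enriched libraries. When each cell was thinned to 2000 gene UMIs, the share in mural cells was 1.04% and 0.82% in WT against 1.65% and 1.23% in the Tubb3-/- mice, with 43 shallower cells left out. The unthinned shares were 3.37% and 2.85% against 7.52% and 6.77%. The exact two-sided permutation test gave p = 0.333 for either, which is the smallest value that 2 against 2 mice allow.

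Pericyte-like cells of all kept cells comprised a pair of clusters, whose Alkal1 levels overlapped in the WT mice and lay apart in the Tubb3-/- mice. The larger one (1145 cells, led by Rgs5, Ccl19 and Ndufa4l2) gave 16.1 and 6.28 CPM in WT against 40.2 and 24.6 CPM in Tubb3-/- mice. The smaller one (275 cells, led by Adcy8, Fam162b and Clstn2) gave 8.12 and 3.48 CPM in WT against 10.5 and 6.30 CPM in Tubb3-/- mice, from 13 UMIs in all. The Rgs5-led cluster held 299 of the 312 Alkal1 UMIs of pericyte-like cells, and also 1145 of the 1420 cells. Within the mural lineage, a pair of pericyte-like clusters averaged 12.0 and 11.4 CPM in WT, and 27.9 and 8.88 CPM in Tubb3-/- mice. The peribronchial fibroblast-like cells also formed a pair of clusters, and both carried the transcript. The one led by Pappa2 and Fgf18 gave 15.7 and 12.96 CPM in WT against 42.1 and 47.8 CPM in Tubb3-/- mice, and the one led by Sbspon and Tnnt2 gave 14.5 and 39.1 CPM in WT against 61.0 and 49.9 CPM in Tubb3-/- mice.

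The mural lineage as cut by Higd1b or Myh11 was mixed, and this set what its Alkal1 value stood for. Smooth muscle-like clusters made up 58.1% of its 5513 cells but held 4.07% of its 738 Alkal1 UMIs. Pericyte-like clusters were 20.3% of the cells with 31.0% of the UMIs, and peribronchial fibroblast-like clusters were 11.8% of the cells with 53.4% of the UMIs. The largest part of the mural Alkal1 signal was thus in cells with a UMI of Higd1b or Myh11 that clustered by peribronchial fibroblast markers. Only 46 cells had Higd1b and no Myh11 UMI, too few in each mouse for a fit, and 4930 had Myh11 and no Higd1b UMI, so that neither marker alone separated pericytes here. The mean over the mice was 17.2 CPM in mural cells of the whole-cell libraries alone, against 10.4 CPM over both libraries.

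The study compared Tubb3-/- with WT mice, and Alkal1 was higher in the Tubb3-/- mice in most groups of cells that carried it. In mural cells the mean was 6.08 ± 1.20 CPM in WT and 14.7 ± 3.75 CPM in Tubb3-/- mice (SD, n = 2 each), a fold of 2.42. The genotypes did not overlap, and a gap in this direction was seen for 22.3% of the 15139 genes tested in mural cells. In fibroblasts the mean was 0.84 ± 0.41 against 2.33 ± 0.28 CPM, a fold of 2.77, again without overlap, as for 27.4% of 15260 genes. In epithelial cells it was 21.0 ± 4.82 against 32.9 ± 10.0 CPM, a fold of 1.57, where 18.7% of 11271 genes lay apart in that direction and the lower Tubb3-/- mouse (25.9 CPM) was close to the higher WT mouse (24.4 CPM). Such a separation of 2 against 2 mice was therefore common among all genes, and nothing was read from it for Alkal1, whose genotype pattern had been part of the choice.

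The fitted log2 differences of Alkal1 were 1.31 ± 0.24 (SE) in mural cells, 1.46 ± 0.41 in fibroblasts and 0.61 ± 0.29 in epithelial cells. These are descriptions, since the genotype values had been part of the choice. Over the 5 lineages, 10 states and 24 all-cell types fitted, members passed the low-count filter 23 times and none was called by the quasi-likelihood test of edgeR (adjusted p under 0.05), where 0.407% of all tests were. The background was low in the lineages, with 3 of 15139 genes called in mural cells (0.0198%), 0 of 11271 in epithelial cells (0%) and 0 of 15260 in fibroblasts (0%), where 2767 genes had an unadjusted p under 0.05. Single mice moved the size of the Alkal1 difference. In mural cells it was 1.16 (log2) without WT mouse 1 and 1.45 without WT mouse 2, and in fibroblasts 2.13 without WT mouse 1. These fits assume the lone WT mouse to vary like the Tubb3-/- mice. With DESeq2, with no low-count filter and with 2 or more UMIs of a marker, Alkal1 was called in mural cells. The genes called there numbered 0 to 843 over the alternative settings, so such calls depended on the setting. The direction was the same in every alternative run for these 3 lineages.

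Among cell types, Alkal1 in peribronchial fibroblast-like cells averaged 22.2 ± 9.81 CPM in WT and 47.3 ± 1.35 CPM in Tubb3-/- mice, a fitted difference of 1.20 ± 0.23 (log2, SE), where 106 of 12195 genes were called (0.869%). The genotypes did not overlap, as for 25.5% of genes in that direction. The difference was 0.75 without WT mouse 1 and between 1.19 and 1.58 without each of the other mice in turn. Each of these fits rests on a lone mouse of a genotype. The difference was seen in both libraries, with 19.9 and 19.4 CPM in WT against 39.2 and 70.4 CPM in Tubb3-/- whole-cell samples and 14.3 and 31.8 against 47.8 and 44.9 CPM in the mural cell-enriched ones. In pericyte-like cells the mean was 10.4 ± 7.15 against 29.7 ± 10.9 CPM, a difference of 1.46 ± 0.48, with 0 of 11954 genes called (0%). Here too the genotypes lay apart, as for 16.9% of genes. The difference was 2.54 without WT mouse 1 and 0.89 without WT mouse 2, in fits that each rest on a lone WT mouse. In the whole-cell samples the pericyte-like cells of the WT mice gave 34.6 and 0 CPM and those of the Tubb3-/- mice 38.5 and 13.2 CPM, so the genotypes overlapped there, on 30 to 48 cells a mouse.

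The fitted values of the other carriers of Alkal1 ranged widely. In alveolar type 2-like cells of all kept cells the genotypes overlapped, with a difference of 0.30 ± 0.23 (log2, SE). The alveolar type 2-like state of the strict epithelial lineage averaged 47.6 CPM in WT against 91.1 CPM in Tubb3-/- mice, a fold of 1.91. No fit was made for that state. In fibrotic fibroblast-like cells of all kept cells the difference was 0.07 ± 0.36, from 3.64 and 7.60 CPM in WT and 5.87 and 4.88 CPM in Tubb3-/- mice. Among cells of the strict fibroblast lineage the fibrotic state gave 2.46 and 1.55 CPM in WT and 7.05 and 7.13 CPM in Tubb3-/- mice, a difference of 1.70 ± 0.57, but the WT values rested on 3 and 1 UMIs. The fibrotic cells of the 2 definitions thus differed in their genotype values. In alveolar type 1-like cells the difference was 1.19 ± 0.91, with the sign reversed without Tubb3-/- mouse 1. The inflammatory state of the fibroblast lineage, marked by Saa3 and Lcn2, had 1 Alkal1 UMI in each WT mouse and 18 and 16 in the Tubb3-/- mice, a difference of 2.09 ± 0.79.

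Whether the difference itself varied between cell types was fitted with the mouse as a block. Among the types of all kept cells, it was larger by 1.24 ± 0.47 (log2, SE) in pericyte-like than in alveolar type 2-like cells (0.0237% of genes called). It was also larger by 1.10 ± 0.29 in peribronchial than in fibrotic fibroblast-like cells (0.0603% called). Between mural cells and fibroblasts it differed by −0.17 ± 0.42 (0% called). No such contrast passed for any member, and a genotype difference confined to one cell type was therefore not shown.

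**Figure D3:**
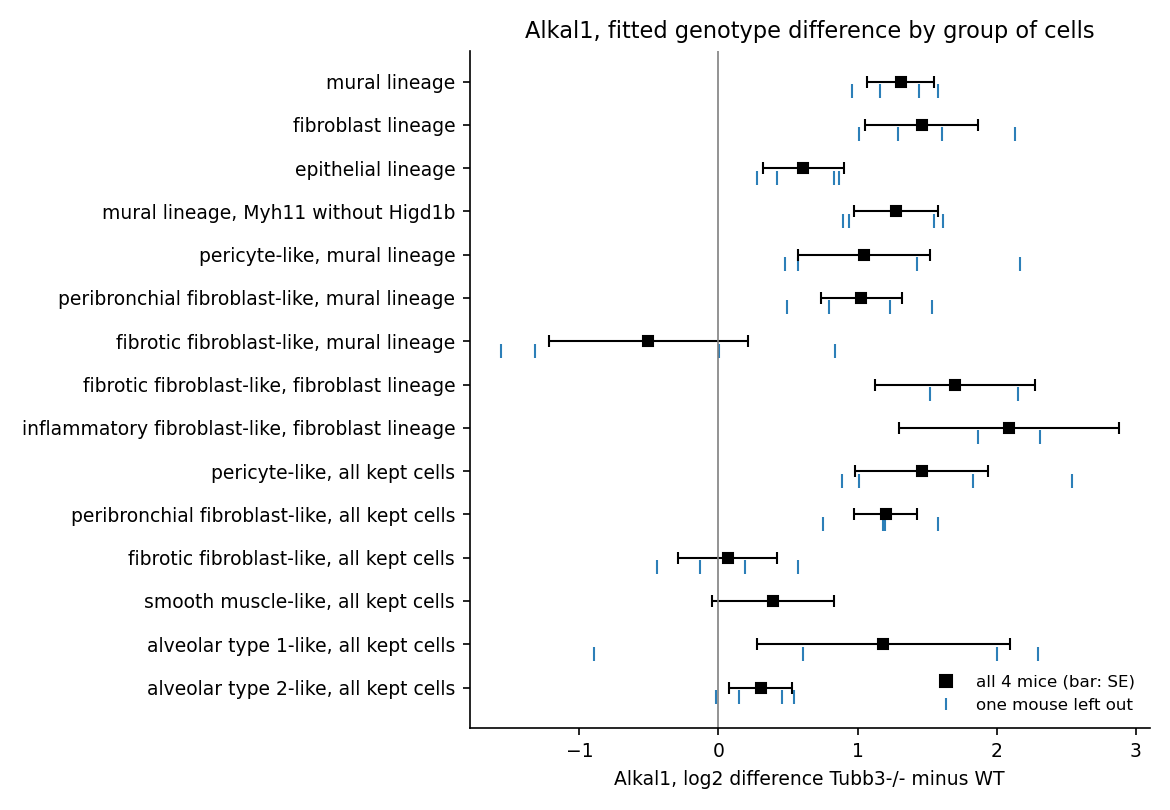
Fitted log2 difference of Alkal1 between Tubb3-/- and WT mice (x axis) in 15 groups of cells (y axis), with squares and bars for the estimate and its SE over 4 mice and blue ticks for the fits with 1 mouse left out. Mural, fibroblast, pericyte-like and peribronchial fibroblast-like estimates lie between 1.03 and 1.46, whereas fibrotic fibroblast-like cells of all kept cells lie at 0.07.

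The make-up of the lineages differed between the genotypes together with Alkal1. Peribronchial fibroblast-like cells were 10.0% and 8.35% of mural cells in WT against 13.3% and 14.5% in Tubb3-/- mice. In the fibroblast lineage the fibrotic state was 5.99% and 3.12% of cells in WT against 17.2% and 12.5% in Tubb3-/- mice, and the inflammatory state 13.2% and 9.92% against 30.7% and 34.2%. With the clusters weighted by the same shares in every mouse, the fold of Alkal1 went from 2.42 to 1.68 in mural cells and from 2.77 to 1.99 in fibroblasts. In epithelial cells it went from 1.57 to 1.88, and over all kept cells from 2.09 to 1.77. The weighted fold thus stayed above 1 in each of these sets. How far the shares of the clusters account for the differences was not tested. Single clusters differed in direction, and the fold was 0.59 in the fibrotic fibroblast-like cluster of the mural lineage and 0.84 in the peribronchial fibroblast-like cluster of the fibroblast lineage.

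**Figure D4:**
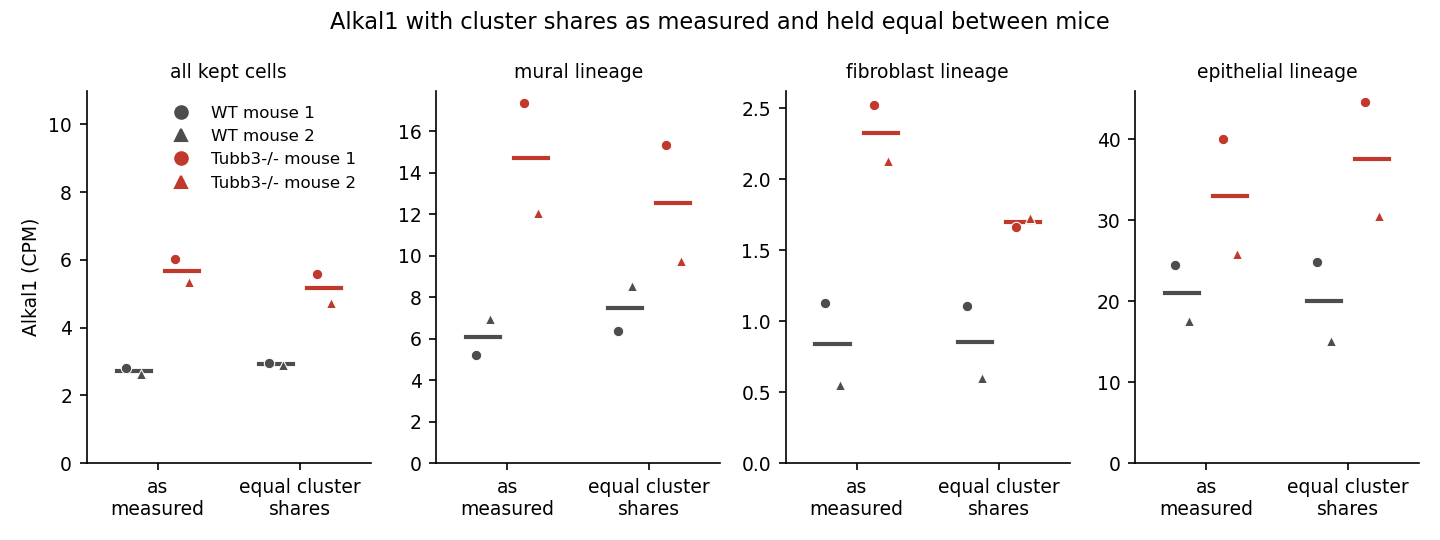
Alkal1 in CPM (y axis, linear, own scale in each panel) per mouse in 4 sets of cells, as measured and with all clusters given the same share in every mouse. The fold of the means falls from 2.42 to 1.68 in mural cells and from 2.77 to 1.99 in fibroblasts, and the genotypes remain apart.

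Alkal2, the second ligand, had a narrower place in the mesenchyme. Among the named types, pericyte-like cells had the highest level, with 6.88 and 3.26 CPM in WT against 5.10 and 4.49 CPM in Tubb3-/- mice (4.93 ± 1.51, SD, n = 4, 70 UMIs). Every mouse lay above the range of the next named type, smooth muscle-like cells at 2.09, 0.29, 0.56 and 1.13 CPM. The Rgs5-led pericyte cluster, the larger of the pair, held 66 of the 70 UMIs. The other group with a steady level was an unnamed fibroblast cluster of 1490 cells led by Scara5, Ccl11 and Pi16, genes of adventitial fibroblasts. It gave 2.94 and 3.71 CPM in WT against 2.54 and 3.35 CPM in Tubb3-/- mice. That range overlapped the range of pericyte-like cells, and in WT mouse 2 the cluster lay above them. A smooth muscle-like cluster of all kept cells held 25 UMIs in WT mouse 1 and 1, 5 and 11 in the other mice. A single smooth muscle-like cell held 16 of the 51 UMIs of that type. WT mouse 1 also raised the mural mean. Within the mural lineage, however, smooth muscle-like cells averaged 0.55 CPM in WT against 0.53 CPM in Tubb3-/- mice. Pericyte-like cells of that lineage gave a normalized 13.2 CPM in WT mouse 1, above each of the other mice.

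Alkal2 differed between the genotypes in no steady direction. Mural cells gave 2.35 and 0.79 CPM in WT against 1.43 and 1.63 CPM in Tubb3-/- mice, a fitted difference of −0.14 ± 0.52 (log2, SE) that ran from −0.68 to 1.01 as single mice were left out, and fibroblasts 0.62 and 0.67 against 0.34 and 0.61 CPM, a difference of −0.44 ± 0.43. In pericyte-like cells of all kept cells the difference was −0.13 ± 0.46. The pericyte-like state of the mural lineage averaged 8.17 CPM in WT against 5.56 CPM in Tubb3-/- mice, a fold of 0.68. Cells with Myh11 and no Higd1b UMI averaged 0.43 CPM in WT against 1.13 CPM in Tubb3-/- mice, and cells with both markers 16.4 against 5.47 CPM. Endothelial cells held 9 Alkal2 UMIs, immune cells 3 and epithelial cells 1. The difference of Alkal2 was not tested against that of Alkal1, so a smaller response of Alkal2 was not shown. The ligands were seldom found in the same cell, with 16 cells that held a UMI of both among 877 with Alkal1 and 221 with Alkal2, at counts too sparse for a measure of association.

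The receptors were sparse, and each had its highest level in a cell type that carried little or no ligand. Alk was highest in aerocyte-like endothelial cells, the large alveolar capillary cells marked by Car4 and Ednrb, with 13.7 and 6.14 CPM in WT against 5.59 and 4.27 CPM in Tubb3-/- mice, from 34 UMIs in 502 cells. The Tubb3-/- values were the lower ones without overlap, as for 16.9% of the 9869 genes tested there, but Alk itself did not pass the low-count filter. General capillary-like cells, the other alveolar endothelial type, held 3 Alk UMIs in 2587 cells. The other lineages held few Alk UMIs, 22 in mural cells (0.65, 0.20, 0.095 and 0.39 CPM), 21 in fibroblasts (0.23, 0.37, 0.27 and 0.17 CPM), 7 in immune cells and 4 in epithelial cells. In the endothelial lineage as a whole Alk gave 2.48 and 1.63 CPM in WT and 1.10 and 0.46 CPM in Tubb3-/- mice, on 13 and 11 UMIs. Adventitial fibroblast-like cells gave 4.07, 0, 1.02 and 3.41 CPM, all below the lowest aerocyte-like mouse.

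Ltk was highest in ciliated-like airway cells, marked by Foxj1, at 15.1 and 8.28 CPM in WT against 12.0 and 6.21 CPM in Tubb3-/- mice. Its 22 UMIs there came from 107 cells, and every mouse lay above the range of alveolar type 1-like cells, the next type, at 2.68, 1.23, 4.42 and 1.19 CPM. Alveolar type 2-like cells gave 2.93, 1.39, 2.85 and 1.60 CPM and B cell-like cells 1.33, 1.05, 3.19 and 2.57 CPM, ranges that overlapped. The epithelial lineage as a whole gave 5.59 and 1.14 CPM in WT and 5.36 and 2.15 CPM in Tubb3-/- mice, with a fitted difference of 0.11 ± 0.82 (log2, SE). Ltk was low elsewhere, with 15 UMIs in mural cells (0.18, 0.20, 0.19 and 0.34 CPM), 11 in immune cells (0.33, 0.29, 0.14 and 0.17 CPM), 6 in fibroblasts and 1 in endothelial cells. Alveolar type 2-like and type 1-like cells thus carried Alkal1 together with a low level of Ltk. In single cells, UMIs of Alkal1 and Ltk coincided in 13 of the 29891 cells, and UMIs of Alkal1 and Alk in 14.

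**Figure D5:**
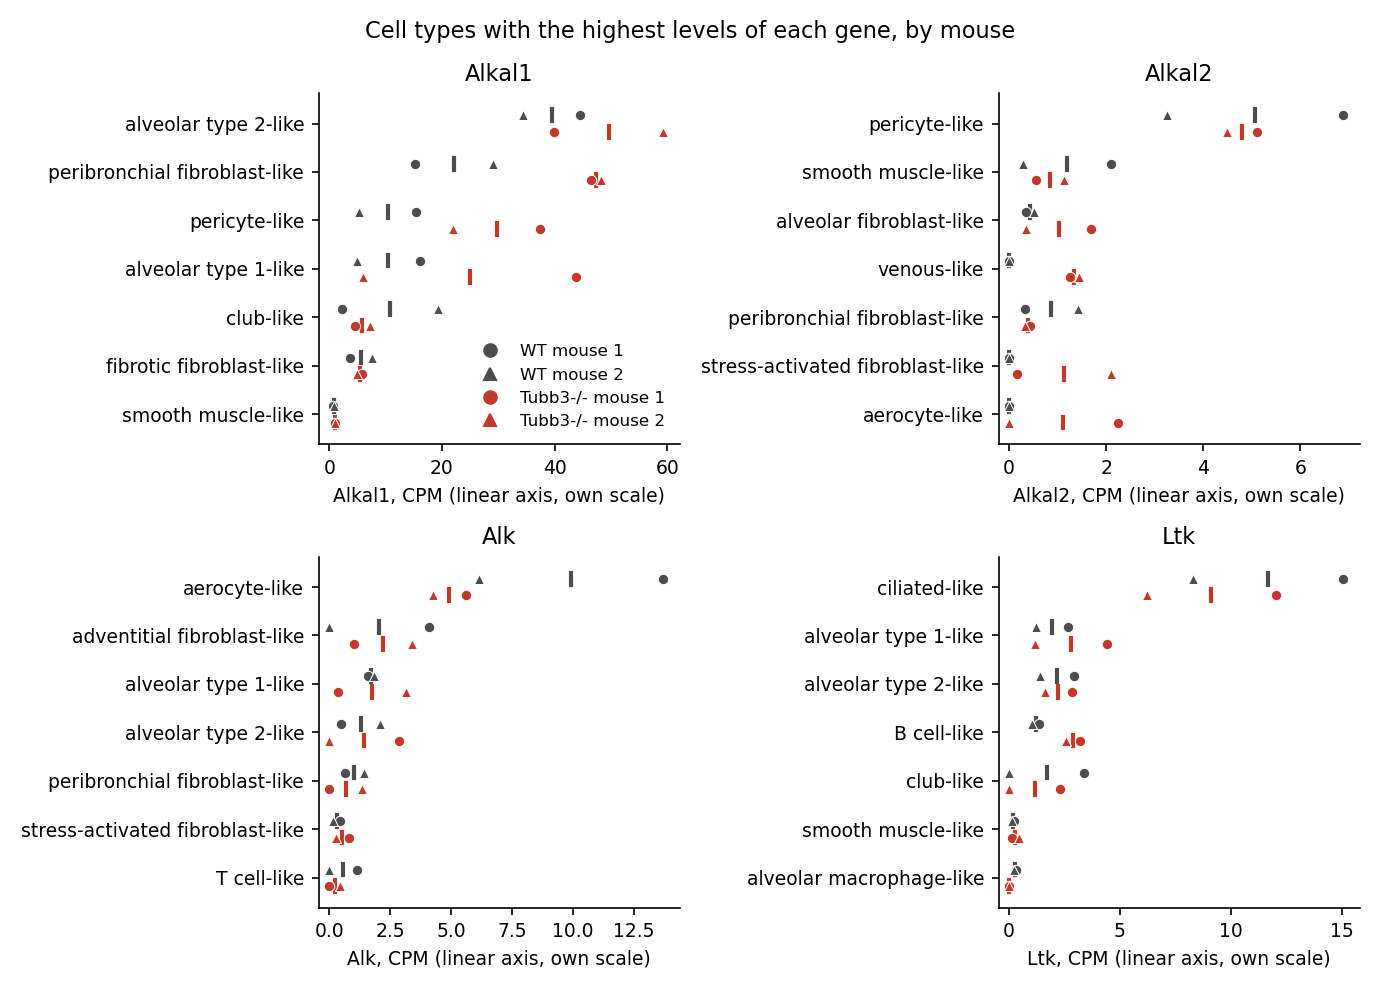
CPM per mouse (x axes, linear, own scale in each panel) of Alkal1, Alkal2, Alk and Ltk in the 7 named cell types with the highest levels that held more than 3 UMIs of each gene. Alkal2 is highest in pericyte-like, Alk in aerocyte-like and Ltk in ciliated-like cells.

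Of the other ligands, midkine (Mdk) was a fibroblast transcript, at 215 and 160.0 CPM in WT against 282 and 298 CPM in Tubb3-/- mice. Pleiotrophin (Ptn) gave 15.3 and 9.71 against 31.3 and 25.7 CPM in fibroblasts, and neither of these ligands overlapped between the genotypes, as for the 27.4% of fibroblast genes that lay apart in that direction. Their receptor Ptprz1 was instead mural, with 126 and 118 CPM in WT against 95.5 and 92.1 CPM in Tubb3-/- mice, and 36.6, 18.7, 27.3 and 25.9 CPM in epithelial cells. None of these differences passed the test in the lineages. Over a list of 48 pathway genes (ligands and co-receptors, adaptors, and MAP kinase targets and feedback genes), none was called in the 5 lineages. The median fitted log2 difference of the whole list lay between −0.10 and 0.04. The median of the ligands and co-receptors ran from −0.15 in endothelial cells to 0.82 in fibroblasts, where all 6 lay above 0. That of the MAP kinase targets and feedback genes ran from −0.21 in epithelial to 0.04 in immune cells.

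Within states, 4 of these genes passed in 1 of the 10 state fits each. In peribronchial fibroblast-like cells of the mural lineage, the state with the most Alkal1 UMIs, Ptprz1 fell from TMM-normalized levels of 132 and 212 CPM in WT to 82.8 and 74.2 CPM in Tubb3-/- mice (log2 difference −1.11 ± 0.21, SE, adjusted p = 0.0486 by edgeR), and it was called in every alternative run for that state. In the same type drawn from all kept cells it did not pass, at −1.01 ± 0.20 (adjusted p = 0.0615). The adaptor gene Irs2 fell there as well, from 205 and 198 to 124 and 99.4 CPM (−0.85 ± 0.15, adjusted p = 0.0456), where 88 of 11143 genes were called (0.79%). The Irs2 call was lost without Tubb3-/- mouse 2 (adjusted p = 0.0803). Among all kept cells Irs2 passed in this type, at −0.67 ± 0.11 (adjusted p = 0.0406), but not without Tubb3-/- mouse 1 (adjusted p = 0.0530) or Tubb3-/- mouse 2 (adjusted p = 0.0830).

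Of the other groups with a call, only the fibrotic state of the mural lineage averaged over 1 CPM of Alkal1 (14.6 CPM over the 4 mice). Egr1, an immediate-early transcription factor induced by MAP kinase signalling, fell by 0.93 ± 0.14 in that state (adjusted p = 0.0346, 0.451% of genes called), though not without Tubb3-/- mouse 1 (adjusted p = 0.0895). Spry4, a feedback inhibitor of that signalling, rose by 2.18 ± 0.33 in the mesothelial state (adjusted p = 0.00908, 0.431% called), but the call was lost without WT mouse 2 (adjusted p = 0.0502) or Tubb3-/- mouse 2 (adjusted p = 0.883). Pathway genes called in the 24 all-cell types numbered 10 of 929 tests of listed genes (1.08%), of which 8 fell and 2 rose, where 0.573% of the tests of all genes were called. Alveolar macrophage-like cells held 5 of them (4 down, with Fosl1, Phlda1 and Dusp5 the largest falls, and Ier3 up), with 5.43% of all genes called there and 1 Alk UMI and 4 Ltk UMIs in 1320 cells. Each of these macrophage calls except Ier3 was lost without at least 1 of the mice. Egr1 and Fos fell in alveolar fibroblast-like cells (0.702% called), and both calls were lost without Tubb3-/- mouse 1. The Fos call was also lost without Tubb3-/- mouse 2 and with another size-factor method (RLE). Dusp5 fell in general capillary-like cells (0.452% called), and Nrp1, a co-receptor, rose by 2.52 ± 0.47 in neutrophil-like cells (adjusted p = 0.0172, 3.74% called).

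The genes whose pattern was nearest to Alkal1 over the 20 sums of 5 lineages and 4 mice were Ddit4l, Klc3, Zfp365, Ndufa7 and Stard10, with Pearson r of log2(CPM + 1) from 0.957 to 0.976 among 16726 genes. Within the mural lineage, over 20 sums of states and mice, they were Spry1, Csmd1, Tshz2, Ism1 and Dkk3, at r from 0.909 to 0.935 among 12918 genes. Spry1, the nearest, encodes another feedback inhibitor of receptor tyrosine kinase signalling. The points of each profile share libraries and mice, and these values are a description.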

How the data were processed

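The authors deposited whole-number UMI counts per gene and cell, and per the labels cells of each pool were assigned to mice by CellPlex tags. The submitters' processing notes name Cell Ranger 7.1.0 and mm10. Cells with 200 to 7500 genes and at most 15% mitochondrial UMIs were kept and 969 Scrublet doublets removed, with the mural-enriched pool's threshold also used for the whole-cell pool, where the automatic one marked 2 cells (chosen after seeing the data). UMIs were summed per mouse and lineage over both libraries and tested with edgeR 4.0.16 (quasi-likelihood, filterByExpr, TMM, Benjamini-Hochberg over all genes), with DESeq2 1.42.0 as an alternative. Cells were clustered with scanpy 1.11.5 (2000 variable genes without the 4 members, 50 components, Leiden) and named from marker lists. The pipeline was tested on simulated data. The planned fit of pericytes by marker could not be made (46 cells), and pericyte-like clusters replaced it.

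The members and lists were chosen with earlier results of these data known. All 4 members were described in the 5 lineages, by UMIs alone where these were under 10. Pathway genes were named where called (up to 3 a direction and fit, a limit set for lineages), with Ptn, Mdk and Ptprz1 by level, and the 5 genes nearest to each member with at least 100 UMIs by Pearson r. Of these the genes nearest to Alkal1 are given, and those nearest to Alkal2 are not reported here. The mice were the replicates, and the smallest exact p was 0.333. Intervals and floors cover counting error only. Tag counts were used only to assign files to mice. Ltk and Alk had too few UMIs for most fits.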

Additional observations from a re-analysis of the deposited data

Results flagged for a closer look

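A signal was present in cells that entered no comparison between lineages. In cells with markers of several lineages (11452 cells, 878 UMIs), Alkal1 averaged 5.03 CPM in the Tubb3-/- mice, above the 2.42 and 2.69 CPM of the WT mice. In the same cells Alkal2 averaged 0.761 CPM in the Tubb3-/- mice against 0.590 CPM in the WT mice (0.677 and 0.502 CPM), a fold of 1.29. In cells with no lineage marker (1079 cells), Alkal1 averaged 7.21 CPM in the Tubb3-/- mice, above 2.74 and 0.41 CPM in the WT mice, on 43 and 8 UMIs. A mean over the Tubb3-/- mice does not show whether the genotypes overlapped, and no fit over all genes was made for either set of cells. Of the peribronchial fibroblast-like cells of all kept cells, 31.0% carried markers of several lineages and 6.73% none, and their part in these values was not tested.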

How the results depend on the processing

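Values below are log2 differences between Tubb3-/- and WT mice unless stated. Leaving out 1 mouse in turn moved the Alkal1 difference between 0.96 and 1.58 in mural cells, 1.01 and 2.13 in fibroblasts, 0.28 and 0.87 in epithelial cells, 0.48 and 2.17 in pericyte-like and 0.50 and 1.54 in peribronchial fibroblast-like cells of the mural lineage, and 0.89 and 1.61 in cells with Myh11 and no Higd1b UMI, so no direction changed. The lone mouse of a genotype is assumed to vary like the others in these fits. Alkal1 passed the threshold with DESeq2 at 1.31 in mural cells and 1.26 in Myh11 cells, with no low-count filter at 1.33 in mural, 1.30 in Myh11 and 1.08 in peribronchial fibroblast-like cells, and with 2 or more UMIs of a marker at 1.70 in mural cells. With a replicate block it passed at 1.49 in fibroblasts, 1.05 in peribronchial fibroblast-like and 1.28 in Myh11 cells. The numbers name 2 pairs of mice with nothing in the labels that ties them, and the deviations of same-numbered mice correlated at 0.308 in mural cells, 0.325 in fibroblasts and 0.0849 in epithelial cells. The change in mural cells minus that in fibroblasts ranged from −0.96 to 0.45 for Alkal1 and from −0.22 to 1.48 for Alkal2 over the mice left out, each time with the sign turned without WT mouse 2. Over the mice left out, the Alkal2 difference in mural cells ran from −0.68 to 1.01, with the sign turned without WT mouse 1. The Ltk difference in epithelial cells ran from −0.67 without Tubb3-/- mouse 1, through −0.56 without WT mouse 2, to 0.59, and was −0.74 with 2 or more UMIs of a marker. The share of epithelial cells with Alkal1 was 5.32 percentage points higher in Tubb3-/- mice before thinning and 1.10 points lower after it. Mean Alkal1 was 38.0 CPM in epithelial cells of the mural cell-enriched libraries and 17.2 CPM in mural cells of the whole-cell libraries. The cause of these changes was not tested.

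The number of genes called depended on the setting far more than the members' directions did. DESeq2 called 208 genes in mural cells, 512 in fibroblasts, 137 in endothelial, 71 in immune and 7 in epithelial cells. With no low-count filter the counts were 843, 0, 978, 161 and 240 in the same order, and with the replicate block 322, 1500, 3, 9 and 129. Without WT mouse 1 they were 692, 1117, 107, 111 and 102, without WT mouse 2 432, 627, 24, 38 and 5. Without Tubb3-/- mouse 1 they were 1, 0, 68, 1 and 3, without Tubb3-/- mouse 2 9, 0, 364, 0 and 0. With 2 or more UMIs of a marker 65 mural, 194 endothelial and 3 immune genes were called, and within the whole-cell libraries 0 mural, 1 endothelial and 1 epithelial. With 2 mice a genotype and few UMIs, Alk and Ltk could not be fitted in most groups.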
